A study of Drosophila melanogaster with 4 samples.

Results

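Isolated KDM4A regions are enriched regions of the replicate-set list that are narrower than 8000 bp and lie at least 15000 bp from the nearest enriched region on both sides of the same arm (2L, 2R, 3L, 3R or X), the first and last region of each arm being left out. There were 599 of them among 7755 regions under 8000 bp on these 5 arms (7.72%), and 8653 enriched regions in the whole list. The other 7156 regions under 8000 bp are called the remaining regions. Width and spacing in that list chose the members, so both are given as descriptions.

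KDM4A, also named JMJD2A, is a histone demethylase of the Jumonji family, which removes methyl groups from lysines of histone H3. In Drosophila it binds HP1a, a protein of heterochromatin, the compact and repeat-rich part of the genome. Chromatin immunoprecipitation and sequencing (ChIP-seq) recovers the DNA near a protein with an antibody, and a region is called where the ChIP holds more reads than input chromatin.

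The ChIP was done with antibody Q2541 on head nuclei of wild-type Oregon-R flies of the mixed adult stage, untreated as far as the labels say, with 2 KDM4A ChIP samples, called replicates 1 and 2, each paired by its labels with 1 input. All samples share strain, stage and genotype, and whether the replicates came from separate fly collections was not given. The values were the authors' lists of scored regions, 1 for each replicate and 1 for both as a set, and the read depth behind them is unknown. Whether the nuclei were from heads could not be checked from region positions. Positions are of FlyBase release 5, counted from 1, and no gene names or sequences of that release were at hand, so regions are given by position. No difference was tested: all measures come from the lists that chose the members, and 2 replicates cannot take an exact sign-flip test below p = 0.5. Intervals for shares (95% Wilson) and for medians (95%, from binomial order statistics) cover the counting of regions only.

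The replicates were not alike on X. Over the 5 arms together replicate 2 held more regions (6971) than replicate 1 (6416), but on X it held fewer under 8000 bp. By the same rule in its own list, replicate 1 had 111 isolated and 1176 remaining regions on X, and replicate 2 had 94 and 1022. Of the 118 isolated regions on X in the replicate-set list, replicate 1 overlapped 67 in total and replicate 2 overlapped 35. Overlap and scores on X are therefore also given by replicate.

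Gaps of 15000 bp or more were common. They made up 1699 of the 8199 gaps between neighbouring regions (20.7%) and held 70.1 Mb of the 119 Mb of the 5 arms (58.9%), while the median gap was 3520 bp. An isolated region needs such a gap on both sides. Its nearer gap had a median of 25420 bp (quartiles 18860.5 and 35336.5 bp) and its farther gap a median of 49630 bp. For the remaining regions these medians were 1248 and 7068 bp.

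The most isolated region lay on 3L at 13716697 to 13717928, with 119664 bp to its nearer neighbour and 206571 bp to the other. It was 1232 bp wide, scored 0.467, and was overlapped by replicate 1 alone. The next, on 3L at 18296581 to 18298920, had a nearer gap of 116400 bp and was overlapped by replicate 2 alone. On 2L the region at 17259924 to 17261694 had a nearer gap of 105715 bp and was held by both replicates, with scores of 0.235 in replicate 1 and 0.622 in replicate 2. On X the region at 22256637 to 22258410, with a nearer gap of 102791 bp, was overlapped by replicate 1 alone. The fifth, on 2L at 17783798 to 17785834, had a nearer gap of 96693 bp and scores of 0.581 in replicate 1 and 0.707 in replicate 2. None of these 5 scored above 0.611 in the replicate-set list.

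Many isolated regions lay directly beside another isolated region. The 599 isolated regions have 1198 neighbouring positions, 1 on each side, so a region between 2 isolated ones counts at both. Of these positions, 446 (37.2%) held an isolated region, and 35 (2.92%) held a region of 8000 bp or more. Over all 8204 regions of the 5 arms, isolated regions made up 7.30% and regions of 8000 bp or more 5.47%. A neighbour already has 1 of the long gaps that the rule asks for, so the first of these shares is no background for it. For its other side, 20.7% of all gaps on the 5 arms were 15000 bp or longer. There were 362 isolated regions (60.4%) in 139 runs of 2 or more in a row, and 237 stood with no isolated region beside them. The longest run, picked out after its values were seen, held 9 isolated regions over 381 kb of X at 20453537 to 20834983. Of these 9, both replicates overlapped 3 and neither overlapped 5, with scores from 0.329 to 1.93.

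Most isolated regions also lay far from other regions of replicate 1, and fewer did so from those of replicate 2. The nearest other region had a median distance of 28592 bp in replicate 1 and 22483 bp in replicate 2. For remaining regions these medians were 2441.5 and 2406.5 bp. The counts that follow include isolated regions without a region of the replicate, as replicate 1 overlapped 353 and replicate 2 overlapped 285. Replicate 1 had no other region within 15000 bp of 569 of the 599 isolated regions (interval 92.9 to 96.5%). Replicate 2 had none near 434 (72.5%, interval 68.7 to 75.9%), so that 165 isolated regions had another region of replicate 2 within 15000 bp. Across all 3 lists 411 (68.6%, interval 64.8 to 72.2%) kept 15000 bp free on both sides. Counting only overlap by a region isolated by the same rule in its own list, there were 329 members (54.9%) in replicate 1 and 179 (29.9%) in replicate 2. In each of the replicates there were 127 (21.2%).

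Isolated regions were narrower than the remaining regions. Their median width was 1766 bp (interval 1676 to 1833 bp, quartiles 1231 and 2174.5 bp) against 2143.5 bp (interval 2115 to 2175 bp, quartiles 1482.75 and 3356.25 bp). Regions under 1500 bp made up 39.4% of the isolated and 25.7% of the remaining regions, and regions of 4000 to 7999 bp made up 5.51% and 18.1%. The shortest region was 1301 bp in each replicate list and 1001 bp in the replicate-set list, so a region narrower than 1301 bp has no counterpart of its own width in either replicate. Of the isolated regions 172 (28.7%) were that narrow, and of the remaining regions 1306 (18.3%).

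The widest isolated region, on 3L at 16220689 to 16228543, was 7855 bp wide and scored 1.34, with 1.43 in replicate 1 and 1.41 in replicate 2. On 2L the region at 22869322 to 22876741 was 7420 bp wide and scored 0.857. On 2R the region at 14856837 to 14864160 was 7324 bp wide, scored 2.00, and reached 2.53 in replicate 1 and 1.94 in replicate 2. The fourth, on X at 16774778 to 16781895 (7118 bp), scored 1.20, and the fifth, on 2R at 501848 to 508927 (7080 bp), scored 1.00. All 5 were overlapped by both replicates.

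Replicate support was lower for isolated than for remaining regions. Both replicates overlapped 219 of 599 isolated regions by at least 1 bp (36.6%, interval 32.8 to 40.5%), where the share over all 7755 regions under 8000 bp was 51.0% and over the remaining regions 52.2% (interval 51.1 to 53.4%). Replicate 1 overlapped 353 isolated regions (58.9%, background 67.7%) and replicate 2 overlapped 285 (47.6%, background 64.9%). Over the replicates the share was 53.3 ± 8.03% (SD, n = 2) for isolated and 67.4 ± 1.48% (SD, n = 2) for remaining regions, and the difference was -9.50 percentage points in replicate 1 and -18.8 in replicate 2. Neither replicate overlapped 180 isolated regions (30.1%, interval 26.5 to 33.8%, background 18.4%). Replicate 1 alone overlapped 134 and replicate 2 alone overlapped 66.

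These 4 classes differed in width. Isolated regions held by both replicates had a median width of 2286 bp and a median score of 0.831. Those of replicate 1 alone had medians of 1774 bp and 0.413, and those of replicate 2 alone 1444 bp and 0.450. Those in neither had a median width of 1144.5 bp and a median score of 0.528. Remaining regions held by both were wider, at 3188 bp, and scored 1.02.

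**Figure D1:**
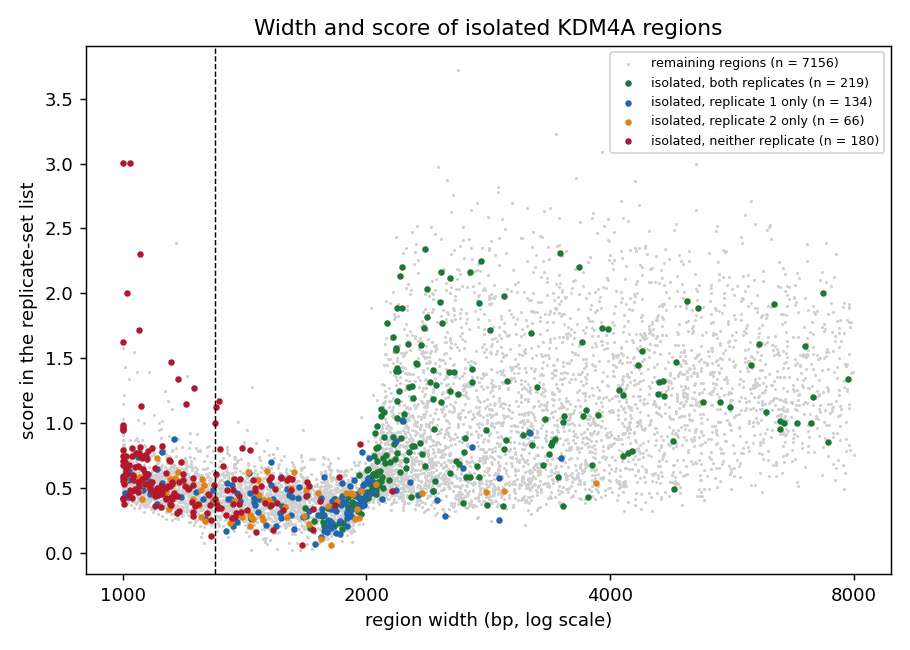
Width (bp, log scale) and replicate-set score of each isolated region, coloured by the replicates that overlapped it, over the remaining regions in grey; the dashed line marks 1301 bp, the shortest region of the replicate lists. Isolated regions in neither replicate gather at the left (median width 1144.5 bp). Those in both replicates lie mostly above 2000 bp (median 2286 bp). The 2 highest isolated points are narrow regions that neither replicate overlapped, while the grey points reach up to 3.72.

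Support was higher in wider regions of both groups, and within a width band their shares in both replicates lay close together. Under 1500 bp both replicates overlapped 1 of 236 isolated regions (0.424%) and 1.25% of the remaining regions. At 1500 to 1999 bp the shares were 22.5% (interval 16.6 to 29.8%) and 18.5% (interval 16.5 to 20.7%). At 2000 to 2999 bp they were 83.4% (interval 76.7 to 88.5%) and 77.3% (interval 75.3 to 79.1%), with the isolated regions on the higher side. At 3000 to 3999 bp the shares were 89.3% and 89.7%, and all 33 isolated regions of 4000 to 7999 bp were held by both, as were 98.1% of the remaining regions. With the remaining regions weighted to the widths of the isolated ones, their share in both replicates was 34.2%, and the difference turned from -15.7 to 2.32 percentage points. The lower share of isolated regions in both replicates went with their smaller width. By single replicate the groups differed more at widths under 2000 bp, but not in replicate 2 at 2000 to 2999 bp. At 1500 to 1999 bp replicate 1 overlapped 70.9% of isolated and 57.3% of remaining regions, and replicate 2 overlapped 37.1% and 45.5%. Under 1500 bp the shares were 16.9% and 20.3% in replicate 1, and 16.9% and 26.4% in replicate 2. At 2000 to 2999 bp they were 96.7% and 89.9% in replicate 1, and 86.1% and 85.4% in replicate 2.

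The shares in neither replicate differed at the smallest widths. Under 1500 bp neither replicate overlapped 157 of 236 isolated regions (66.5%, interval 60.3 to 72.2%) and 54.6% (interval 52.3 to 56.8%) of the remaining ones, which were the wider within this band (median 1187.5 bp against 1147 bp). At 1500 to 1999 bp the shares in neither were 14.6% and 15.7%. None of the 28 isolated regions of 3000 to 3999 bp was missed by both replicates. Taken as 3 counts of the total, this allows a share of up to 10.7%, and the Wilson upper limit is 12.1%. None of the 33 wider ones was missed by both, which allows up to 9.09% by the first and 10.4% by the second limit. Among isolated regions under 1301 bp, none of 172 was in both replicates, which allows up to 1.74% and 2.18%.

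**Figure D2:**
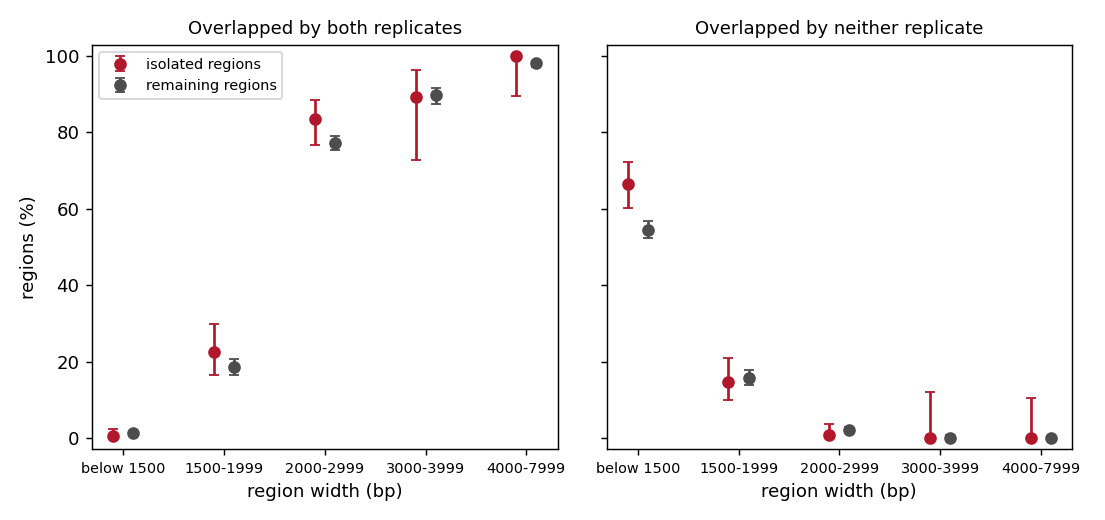
Share of regions (%) overlapped by both replicates (left) and by neither (right) in 5 width bands, for isolated and remaining regions, with 95% Wilson intervals. The share in both replicates climbs from under 2% to 100% of isolated regions with width, and in this share the groups lie closer within each band than the 36.6% against 52.2% seen over all widths.

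Support also varied with the gap among all regions under 8000 bp. Where the nearer gap was under 1000 bp, both replicates overlapped 57.1% (interval 55.3 to 58.8%) and neither overlapped 12.6%. With a gap of 10000 to 14999 bp, just outside the limit of the rule, the shares were 42.9% (interval 37.8 to 48.3%) and 25.3%. With 15000 to 19999 bp they were 34.6% (interval 28.1 to 41.7%) and 25.9%, and with 30000 to 49999 bp 42.3% and 30.2%. The 68 regions with at least 50000 bp on both sides had 26.5% in both replicates (interval 17.5 to 38.0%) and 42.6% in neither (interval 31.6 to 54.5%). The median width was 2414 bp in the first band, 1867.5 bp at 10000 to 14999 bp, 1789 bp at 15000 to 19999 bp and 1555 bp in the last. Between the bands on either side of 15000 bp the intervals of width and support overlapped.

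**Figure D3:**
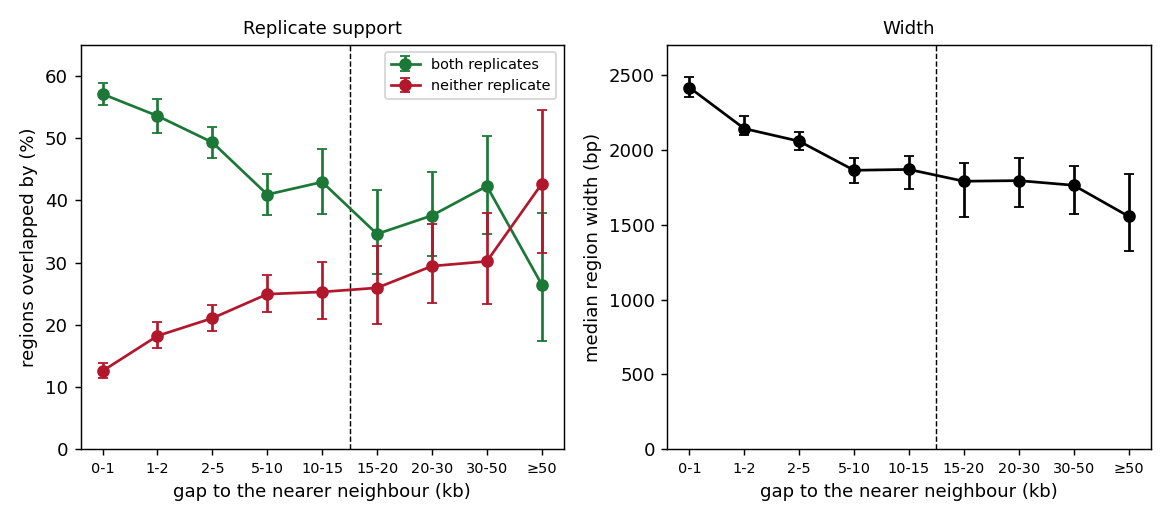
Replicate support (%, left) and median width (bp, right) of all regions under 8000 bp by the gap to the nearer neighbour in kb; bars are 95% intervals and the dashed line is the limit of 15 kb, to the right of which regions are isolated. Support by both replicates and width are highest at the shortest gaps (57.1% and 2414 bp) and lowest at gaps of 50 kb and more (26.5% and 1555 bp).

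The regions nearest to the limits of the rule were all held by both replicates. Just inside the gap limit lay 3L at 8741075 to 8743196 and at 8758213 to 8760486, neighbours with 15016 bp between them, scoring 1.77 and 0.826, and X at 13907885 to 13910101, with a nearer gap of 15021 bp and a score of 1.02. Just outside lay 3L at 5053753 to 5055651 and at 5070638 to 5073301, with 14986 bp between them and scores of 0.249 and 0.344, and 2R at 20179362 to 20183679, with 14975 bp and a score of 0.549. Past the width limit, 5 regions of 8000 bp or more met the gap limit. The narrowest of them, on 3R at 12971311 to 12979958 (8648 bp), scored 1.39, and the next were 10380 bp on 3L at 7962775 to 7973154 (score 1.81) and 10847 bp on 3R at 17091782 to 17102628 (score 0.968). The isolated regions just inside it are the 3 widest given above.

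A part of the scores had the exact form of a log2 ratio. In the replicate-set list 1697 of 8653 scores (19.6%) lay within 1e-09 of the list's most frequent score plus log2 of a ratio of whole numbers up to 200, and none did when that score was shifted by 0.1. In replicate 1 the share was 40.0% and in replicate 2 it was 52.2%. Read as natural logarithms, under 1% of any list did. Among isolated regions 162 scores (27.0%) had this form, and among remaining regions 19.1%. A ratio is known only in its lowest terms, so read counts cannot be recovered from the whole numbers. The form of the other scores was not determined, since larger whole numbers were not tried, and the authors' scale is not stated.

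The median score of isolated regions was 0.529 (interval 0.500 to 0.551) against 0.595 (interval 0.586 to 0.605) for the remaining regions, with quartiles of 0.394 and 0.779 against 0.443 and 1.06. Among the regions that a replicate overlapped, the medians of the replicate's own scores lay farther apart. These were 353 isolated and 4897 remaining regions in replicate 1, and 285 and 4747 in replicate 2. The overlapping regions (the higher score where several overlapped) had a median of 0.768 for isolated and 1.02 for remaining regions in replicate 1, and of 0.868 and 1.03 in replicate 2. The differences were -0.252 in replicate 1 and -0.157 in replicate 2, a mean of -0.205 ± 0.0671 (SD, n = 2). With the rule applied in each replicate's own list, the medians were 0.803 and 1.03 in replicate 1 (difference -0.226). In replicate 2 they were 0.906 and 0.954 (-0.0481), closer than in the replicate-set list (-0.0663). By width the score was lowest at 1500 to 1999 bp, the second of the 5 bands. Isolated regions under 1500 bp had a median of 0.505, those of 1500 to 1999 bp 0.367, those of 2000 to 2999 bp 0.748, those of 3000 to 3999 bp 0.926 and those of 4000 to 7999 bp 1.21. The remaining regions had 0.478, 0.403, 0.729, 0.999 and 1.26 in these bands. Weighted to the widths of the isolated regions, the remaining regions had a median of 0.509, and the difference turned to 0.0203.

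The highest-scored isolated regions were of 2 kinds. Of the top 10, both replicates held 7, which were 2215 to 3658 bp wide and scored at least 1.57 in each replicate, and neither held 3, which were 1002 to 1050 bp wide. Among the 7, the region on 2L at 21793823 to 21796186 scored 2.34 (2.79 in replicate 1 and 1.75 in replicate 2). Its neighbour on 2L, 34132 bp away at 21756227 to 21759690, scored 2.31 (2.39 in replicate 1 and 2.31 in replicate 2). On 3R the region at 25659489 to 25662258 scored 2.25, although replicate 2 had another region 3783 bp from it. On X the regions at 3027678 to 3029892 and at 15032114 to 15034794 scored 2.21 and 2.17. Both of these X regions were lower in replicate 2, at 1.57 against 2.80 and at 1.85 against 2.37. On 3L the region at 14102179 to 14105836 scored 2.21, with another region of replicate 1 within 4047 bp, and on 2L the region at 7280540 to 7283009 scored 2.16.

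The 3 others were on 2R at 849084 to 850104, on 3R at 27110284 to 27111285, and on 2R at 3097136 to 3098185. The first and second had the same score, 3.00, which was the highest of any isolated region and was shared by 6 regions of the whole list, all 1002 to 1119 bp wide, of which 4 lay off the 5 arms. The third scored 2.30. Scores repeated exactly elsewhere in the list were found at 214 isolated regions (35.7%) and 25.4% of the remaining regions. Among isolated regions narrower than 1301 bp 68.0% had a repeated score, and among wider ones 22.7%.

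A high score without support was found at a larger share of isolated than of remaining regions. With all regions under 8000 bp split into 4 score classes at the quartiles 0.439, 0.588 and 1.04, the highest class held 95 isolated regions, of which both replicates overlapped 82 (86.3%, interval 78.0 to 91.8%) and neither overlapped 13 (13.7%, interval 8.17 to 22.0%). Of 1844 remaining regions in that class, 99.0% were in both and 12 (0.651%) in neither. These 13 isolated regions were 1001 to 1315 bp wide and 11 of them were under 1301 bp, as were all 12 of the remaining ones. In the next lower class 48.2% of isolated and 66.1% of remaining regions were in both replicates, in the class below that 19.9% and 25.3%, and in the lowest 18.9% and 15.8%.

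Where each replicate had exactly 1 region at an isolated region, which was so for 206, Spearman's rho between the replicate scores was 0.64 and Pearson's r was 0.74. For the 3173 remaining regions of this kind rho was 0.68 and r was 0.74. Neighbouring regions of 1 library are not independent, so this is a description. Replicate 1 scored higher at 117 of the 206 (56.8%, interval 50.0 to 63.4%). On X it scored higher at 25 of 29 (86.2%, interval 69.4 to 94.5%) and on the autosomal arms at 92 of 177 (52.0%, interval 44.7 to 59.2%). Remaining regions gave 70.7% on X and 55.9% on the autosomal arms.

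**Figure D4:**
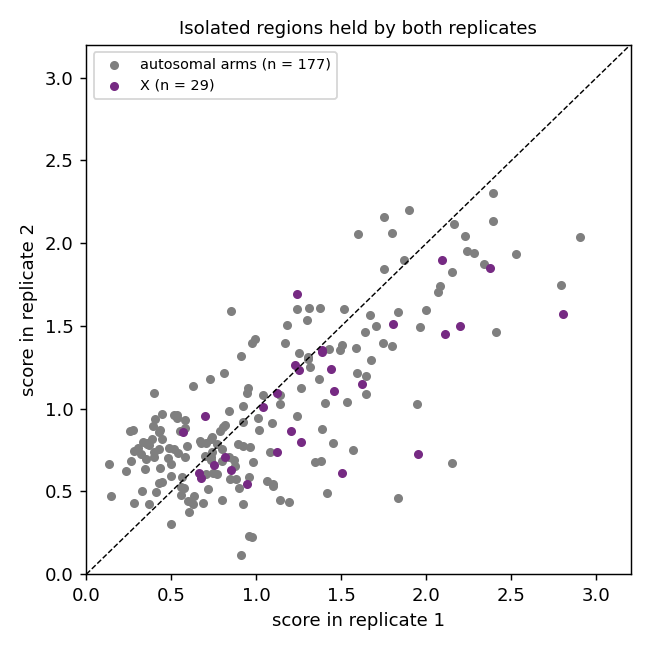
Score in replicate 1 (x axis) and replicate 2 (y axis) for the 206 isolated regions at which each replicate had exactly 1 region; the dashed line marks equal scores. The 29 X regions lie mostly below the line (25 of 29), while the 177 autosomal regions lie on both sides of it (92 below).

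Isolated regions lay on every arm. There were 135 on 2L, 96 on 2R, 119 on 3L, 131 on 3R and 118 on X, which is 5.87, 4.54, 4.85, 4.69 and 5.26 per Mb. Of the regions under 8000 bp on each arm, isolated ones were 10.4% on 2L (interval 8.89 to 12.2%), 7.76% on 3R, 7.57% on 3L, 7.05% on X and 6.28% on 2R (interval 5.17 to 7.61%). 2L had the fewest remaining regions per Mb (50.3) and X the most (69.4). In windows of 1 Mb the number of isolated regions had a median of 5 and ran from 0 to 11. The windows with 11, picked out by that count, were from 2 to 3 Mb on 3L, from 2 to 3 Mb on 3R and from 20 to 21 Mb on X, and those with none were from 17 to 18 Mb on 2R and from 5 to 6 Mb on 3R.

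Support by replicate 2 was lowest on X. Replicate 2 overlapped 29.7% of isolated regions on X (interval 22.2 to 38.4%) and 52.0% on the autosomal arms (interval 47.5 to 56.4%). For replicate 1 the shares were 56.8% on X (interval 47.8 to 65.4%) and 59.5% on the autosomal arms. The remaining regions also had fewer overlaps in replicate 2 on X, 55.8% against 69.3% on the autosomal arms. On 2L both replicates held 64 of 135 isolated regions (47.4%), on 3R 36.6%, on 2R 36.5%, on 3L 35.3% and on X 30 of 118 (25.4%). The remaining regions had 54.5% on 2L, 54.6% on 3R, 53.5% on 2R, 51.9% on 3L and 47.2% on X, so X was the lowest in both groups. Isolated regions on X scored higher in the replicate-set list, with a median of 0.643 (interval 0.582 to 0.734) against 0.492 (interval 0.473 to 0.528) on the autosomal arms. Remaining regions had 0.721 on X and 0.549 on the autosomal arms, so the higher score on X was shared by both groups. In replicate 1 the regions overlapping isolated ones had a median of 0.949 on X and 0.731 on the autosomal arms, and in replicate 2 of 1.10 and 0.858. For remaining regions these medians were 1.23 and 0.954 in replicate 1 and 1.18 and 0.992 in replicate 2.

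**Figure D5:**
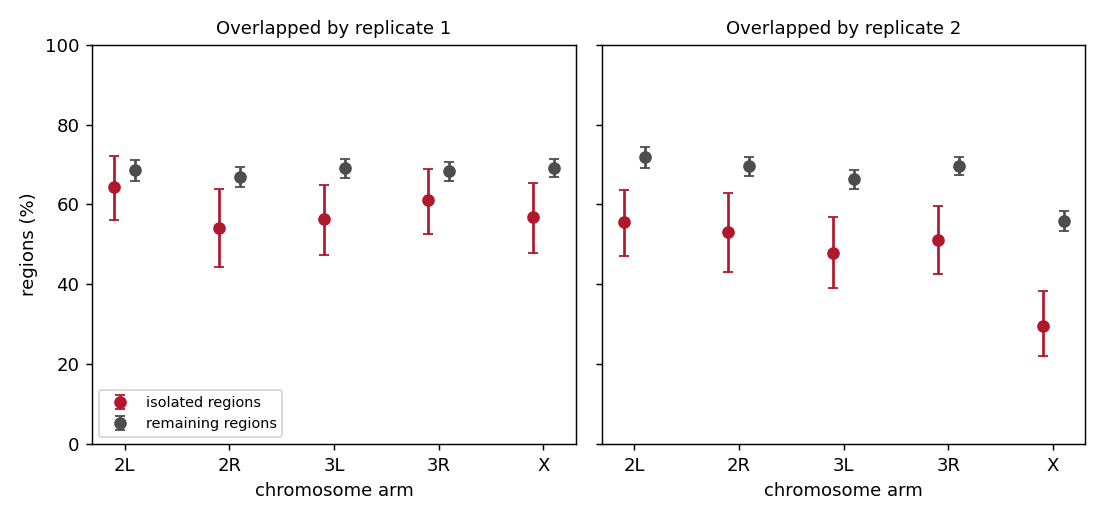
Share of isolated and remaining regions (%) overlapped by replicate 1 (left) and replicate 2 (right) on each arm, with 95% Wilson intervals. Isolated regions lie below the remaining ones on every arm, and the lowest share is that of isolated X regions in replicate 2 (29.7%).

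Near the centromere isolated regions made up a larger share of the called regions on 4 of the 5 arms. In the 2 Mb of each arm next to its centromere-proximal end there were 70 isolated regions, 13.5% of the 518 regions under 8000 bp there (interval 10.8 to 16.7%), and elsewhere 529, which was 7.31% (interval 6.73 to 7.93%). Per Mb this was 7.00 isolated regions near the centromere and 4.85 elsewhere, while the remaining regions went from 44.8 to 61.5 per Mb. The share near the centromere was 25.7% on 3L (18 of 70), 23.2% on X (19 of 82), 15.6% on 2L (14 of 90), 8.55% on 2R (10 of 117) and 5.66% on 3R (9 of 159). Elsewhere on the arm it was 6.73% on 3L, 6.22% on X, 10.1% on 2L and 6.09% on 2R. On 3R the share near the centromere was below the 7.98% of the rest of the arm. The intervals of the 2 zones overlapped on 2L (9.50 to 24.4% near the centromere, 8.48 to 11.9% elsewhere). They also overlapped on 2R (4.71 to 15.0% and 4.96 to 7.46%) and on 3R (3.01 to 10.4% and 6.72 to 9.44%). On 2L both replicates held 10 of these 14 regions, which had a median width of 2391 bp. On 3L both held 3 of 18, with a median width of 1145 bp, and on X 3 of 19, with 1321 bp. Mappability of the arm ends was not measured.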

How the data were processed

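The analysis used the region lists of the 2 KDM4A ChIP samples and of the replicate set. Each input had served the authors' calls for its ChIP, per the labels, and was not used otherwise. Per the file headers positions are of FlyBase release 5. Each list gives regions with 1 deposited score. For its scale, the caller, threshold and filters: not given in the sources used here. The submitters' processing notes name Bowtie 0.12.7. The 1 region of depletion was left out. Gaps are the bases between neighbouring regions of an arm. Overlap was at least 1 bp. Computation used Python 3.11.15, numpy 2.4.6, pandas 2.3.3, scipy 1.17.1 and matplotlib 3.10.9, and the selection and overlap steps were tested on simulated lists. Depth is unknown, so no error of a single score is given.

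The members and the lists were chosen with earlier results of these data known. The regions named are the 10 highest-scored, the highest-scored of each arm, the 5 most isolated, the 5 widest, the 3 highest-scored in neither replicate, and the 3 on each side of each limit. Alternatives were other gap and width limits, neighbours from all 3 lists, the higher-scored 50%, stricter overlap, weighting to width or score, and each replicate alone. A gene table of release 6 was not used, because its positions are of another release.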

Additional observations from a re-analysis of the deposited data

Results flagged for a closer look

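Outside the 5 arms, which the comparisons above do not use, the same rule on width and gap found 112 isolated regions among 449 enriched regions. Of these, 62 of 126 were on U, the collection of unplaced sequence, 48 of 173 on the heterochromatic scaffolds, and 2 of 150 on chromosome 4. Because the sequence of U is unplaced, a gap there is not known to be a distance in the genome. On the 5 arms isolated regions made up 7.30% of the 8204 enriched regions. No control list without a KDM4A ChIP was used, so the counts off the arms have no background from such a list.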

How the results depend on the processing

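Directions turned under 1 setting: with the remaining regions weighted to the width bands of the isolated ones, the difference in median score went from -0.0663 to 0.0203 and that in the share held by both replicates from -15.7 to 2.32 percentage points. Weighted to the score classes, the second was -6.55. The number of isolated regions was 939 with a gap of at least 10000 bp and 217 with 30000 bp, by construction, and at the latter 34.1% were in neither replicate. With widths below 4000 bp the differences were -248 bp in median width, -0.0193 in median score and -9.26 percentage points in both replicates. Applied to the higher-scored 50% of regions, the rule gave -761.5 bp, -0.108, -8.09 percentage points and 14.2% in neither. With neighbours from all 3 lists the difference in both replicates was -20.5 percentage points and the share of isolated regions on X was 23.8%. For regions of at least 1301 bp, a setting chosen after seeing the data like that of the autosomal arms alone, the score difference was -0.145 and 12.2% of isolated regions were in neither replicate. Leaving out 1 replicate (the rule applied to the other replicate's list, or overlap counted with it alone), the results ran from 578 to 624 isolated regions, from -456.5 to -408 bp, from -0.226 (without replicate 2) to -0.0481 (without replicate 1) in score, from -18.8 (without replicate 1) to -9.50 (without replicate 2) percentage points in support, from 41.1 to 52.4% not overlapped, and from 16.3 to 17.8% on X. For all of these, the cause was not tested. No paired analysis was possible because the region lists are of the KDM4A ChIP alone. The inputs, paired with the ChIP samples by their labels, had no region list. The lists hold no read counts.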
